A study of Mus musculus with 6 samples.

Results

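Chromatin accessibility was examined at 10 genes of the interleukin-1 family, 4 that encode ligands or a ligand-like antagonist (Il1a, Il1b, Il1rn and Il18) and 6 that encode receptor chains (Il1r1, Il1r2, Il1rap, Il18r1, Il18rap and Il1rl1). A peak belonged to a gene when its summit, the base with the highest signal, lay in the gene body or within 10 kb of an annotated start of that gene. Peaks of the 6 libraries that shared 1 bp were merged into regions, and the 10 genes held 44 of the 62876 regions, 16 at ligand genes and 28 at receptor genes. The cells were peripheral blood leukocytes of young adult male C57BL/6j mice, taken without sorting after lysis of red cells. The study also calls the assayed cells mononuclear cells, which would hold few neutrophils, so the values at Il1b, Il1r2 and neutrophil markers carry this doubt. Control mice had stayed in normal oxygen and gave 3 libraries. Mice of the HADA group, for high-altitude de-acclimatization, had lived for some weeks in a hypobaric chamber that simulates high altitude. They were then returned to normal oxygen, and also gave 3 libraries. The time from that return to the sampling for this assay is not given in the sources used here. The assay was ATAC-seq, where the transposase Tn5 places sequencing adapters into open DNA.

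The interleukin-1 family is a set of cytokines that start and tune inflammation. IL-1 alpha and IL-1 beta both bind the receptor chain IL1R1, which signals only once the accessory chain IL1RAP joins it. IL-1 receptor antagonist, the product of Il1rn, occupies IL1R1 without signalling, and IL1R2 is a decoy that binds IL-1 but has no signalling domain. IL-18 uses a parallel pair, the binding chain IL18R1 and the accessory chain IL18RAP, and drives interferon-gamma production by T cells and NK cells. In blood, monocytes and neutrophils are the best known sources of IL-1 beta, and neutrophils carry much of the decoy IL1R2.

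The sequences below come from the regions on which the comparisons turn. They are read 5′ to 3′ on the strand of the named gene from the mouse genome GRCm39. Those at a start end on the base before the annotated start, and the others are centred on the summit. Capitals mark matches to the letters TATAAA (the core of a TATA box), GAGGAAGT (PU.1), TTGCNNAA (C/EBP) and TGTGGTT (RUNX) on either strand.
Il1b before its start, chr2:129213060-129213259, minus strand: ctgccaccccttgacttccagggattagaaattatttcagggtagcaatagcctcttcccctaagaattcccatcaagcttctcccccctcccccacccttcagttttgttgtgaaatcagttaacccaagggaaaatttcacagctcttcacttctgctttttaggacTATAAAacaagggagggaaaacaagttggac
Il1b 2.3 kb upstream, chr2:129215265-129215465, minus strand: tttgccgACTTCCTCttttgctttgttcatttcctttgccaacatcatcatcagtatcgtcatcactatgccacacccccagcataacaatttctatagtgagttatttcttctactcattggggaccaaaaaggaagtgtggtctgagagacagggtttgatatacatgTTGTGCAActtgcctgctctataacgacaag
Il1b 10.0 kb upstream, chr2:129222917-129223117, minus strand: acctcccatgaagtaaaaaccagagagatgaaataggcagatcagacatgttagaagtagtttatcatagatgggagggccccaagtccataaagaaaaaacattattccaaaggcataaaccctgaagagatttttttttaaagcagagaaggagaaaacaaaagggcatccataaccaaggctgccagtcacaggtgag
Il1r2 before its inner start, chr1:40123658-40123857, plus strand: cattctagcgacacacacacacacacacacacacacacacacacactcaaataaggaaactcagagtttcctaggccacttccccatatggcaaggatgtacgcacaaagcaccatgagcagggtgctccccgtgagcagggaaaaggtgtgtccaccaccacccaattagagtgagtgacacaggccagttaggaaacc
Il18rap before its start, chr1:40554322-40554521, plus strand: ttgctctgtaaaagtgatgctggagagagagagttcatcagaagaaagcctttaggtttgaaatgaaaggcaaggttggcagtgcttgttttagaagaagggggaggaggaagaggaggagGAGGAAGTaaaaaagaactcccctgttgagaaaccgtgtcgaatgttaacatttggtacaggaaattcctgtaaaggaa
Il18 before its start, chr9:50465881-50466080, plus strand: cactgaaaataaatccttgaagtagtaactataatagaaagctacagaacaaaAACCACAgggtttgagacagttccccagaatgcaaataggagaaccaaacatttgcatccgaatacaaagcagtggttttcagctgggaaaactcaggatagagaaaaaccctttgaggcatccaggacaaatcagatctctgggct
Il1r1 37.8 kb into the gene, chr1:40301857-40302057, plus strand: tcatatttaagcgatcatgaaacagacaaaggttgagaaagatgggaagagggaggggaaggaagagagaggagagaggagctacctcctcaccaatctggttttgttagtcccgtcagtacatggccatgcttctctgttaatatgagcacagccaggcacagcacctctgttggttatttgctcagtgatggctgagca
The window before the Il1b start held a TATA box match, the upstream Il1b window a PU.1 and a C/EBP match, the Il18rap window a PU.1 match and the Il18 window a RUNX match. The remaining 3 windows held none of the 12 motifs searched. A match is a run of letters and not evidence of binding.

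The measure was the summit pileup, the number of overlapping fragments or reads at the highest base of a peak, which was solved from the deposited fold and p-value. It is given here as a multiple of the library's genome-wide background pileup, with a range of 1.69 to 2.05 for the controls and of 1.99 to 2.34 for HADA. Libraries held 34045 to 41475 peaks in the control and 44044 to 45799 in the HADA group, and total read depth was not analysed here. Groups were compared with limma on log2 pileups, each library centred on its median shared region, over all 23970 regions with a peak in all 6 libraries, with Benjamini-Hochberg adjustment at 0.05. Each library was 1 labelled sample of its group, and the labels do not say whether a sample came from 1 mouse. Control 3 stood apart from the other controls: it had the fewest peaks, the highest signal at neutrophil markers and the lowest at B cell markers. Control 1 was nearer to the HADA libraries, with r of 0.882 to 0.911 across the 23970 regions against 0.714 to 0.781 for controls 2 and 3, and had the most B cell marker signal of the controls. Of the regions at the 10 genes, 10 were lower and 1 higher without control 1, and 10 lower and 3 higher without control 3.

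Summit pileup at interleukin-1 family genes was mostly lower in HADA. Of the 44 regions, 14 had a peak in all 6 libraries, against 38.1% of all regions, and 7 of them lay at ligand and 7 at receptor genes. Of these 14, 10 were lower in HADA, where 24.1% of all shared regions were lower, and 2 were higher, where 17.9% of all were higher. Groups that do not overlap were common in the series. After centring, HADA lay wholly below control at 10 of the 14, against 31.2% of all shared regions. It lay wholly above at 2, against 29.4%. The regions that were lower lay at Il1b (3), Il1a (3), Il1r2 (2), Il1rap (1) and Il18rap (1), and those that were higher lay at Il18 and Il1r1. The median log2 difference, HADA minus control, was -1.53 over the 14 regions and -0.04 over all shared regions, with a lower decile of -1.36 and an upper decile of 0.81. In bulk cells, fewer cells of a type and less accessibility per cell cannot be told apart. Over all shared regions 42.7% of the calls were higher in HADA, and dividing by the background in place of centring put the median of all shared regions at 0.34 and raised this share to 62.8%, or to 56.9% with quantile normalization. At the 10 genes, 9 regions were lower and 2 higher after division by the background, 6 were lower without HADA 2, and 0 were lower and 1 higher by the rank of the deposited fold, which is relative to the local background.

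The number of peaks did not separate the groups. At the 10 genes, 32, 26 and 31 peaks were called in control libraries against 29, 28 and 24 in HADA libraries. These numbers overlapped, at 29.7 ± 3.21 and 27.0 ± 2.65 (SD, n = 3 each), and the difference of -2.67 peaks had an exact two-sided permutation p of 0.4, where 0.1 is the smallest that 3 against 3 can give. The difference was -6.67 with equal numbers of strongest peaks and -4.50 to -1.17 with 1 library left out. Of the 44 regions 1 had a peak in every HADA and no control library, against 7.01% of all regions, and 0 had the reverse pattern, against 1.88%. These counts rest on single libraries: the first was 4 without control 1 and 2 without HADA 1, and the second was 2 without control 2 or HADA 2 and 1 without HADA 1. The remaining 29 regions had peaks in some libraries of a group.

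**Figure D1:**
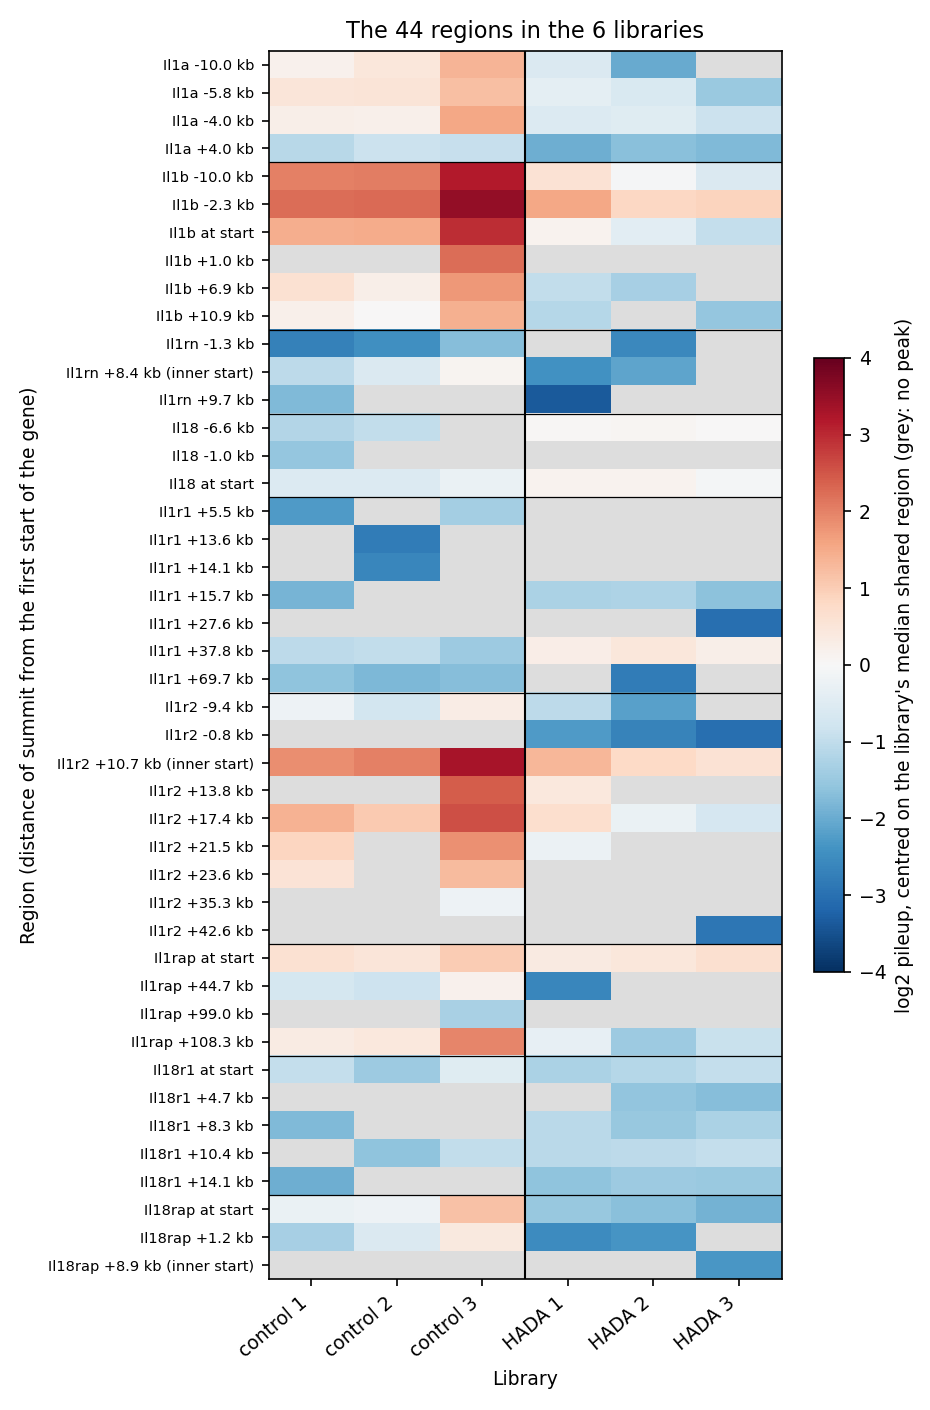
Each row is 1 of the 44 regions, named by gene and by the distance in kb of its summit from the first start of the gene, and each column is a library. Colour gives the log2 summit pileup centred on the library's median shared region and grey means no peak. The Il1b, Il1a and Il1r2 rows with a peak in all libraries are redder in the 3 control than in the 3 HADA libraries. The Il18 start and the Il1r1 row at 37.8 kb are redder in HADA.

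Il1b, which encodes the secreted IL-1 beta, had the strongest regions among the ligand genes. The region over its start, chr2:129212779-129213314, had a summit pileup of 93.6, 74.5 and 206 times background in control libraries against 43.6, 28.6 and 18.5 in HADA libraries. All control libraries lay above all HADA libraries, and control 3 was the highest. The log2 difference was -2.37 ± 0.44 (SE, adjusted p = 0.0104, limma), a 5.16-fold lower level in HADA relative to the median region. The means were 125 ± 71.1 and 30.2 ± 12.6 times background (SD, n = 3 each).

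Both upstream regions of Il1b moved the same way. The region 10.0 kb upstream, chr2:129222170-129223642, lies in an intron of the noncoding gene Gm75810 and had pileups of 139, 111 and 243 times background in controls against 58.1, 37.7 and 23.7 in HADA libraries. It had the most negative difference of the 14 regions, at -2.44 ± 0.39 (SE, adjusted p = 0.00903, limma), and the groups did not overlap. The region 2.3 kb upstream, chr2:129214900-129215792, lies in an exon of the noncoding gene Il1bos and was the tallest of all 44, with pileups of 162, 129 and 303 times background in controls against 116, 69.3 and 66.4 in HADA libraries. Its difference was -1.57 ± 0.37 (SE, adjusted p = 0.0156, limma), again without overlap, but the call was lost when HADA 2 or HADA 3 was left out. At the start and at 10.0 kb the call held with any 1 library left out, and without control 3 the difference at the start was -1.92.

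The other 3 Il1b regions were not in all libraries and were not tested. Those 10.9 kb and 6.9 kb downstream of the start had a peak in 3 of 3 control and 2 of 3 HADA libraries, with pileups of 26.8 to 88.5 times background in controls against 12.3 to 20.1 in HADA libraries. The region 1.0 kb downstream was called in control 3 alone, at 126 times background. Peaks are called against the local background, so the lack of a call inside this broadly open gene does not mean a low pileup.

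**Figure D2:**
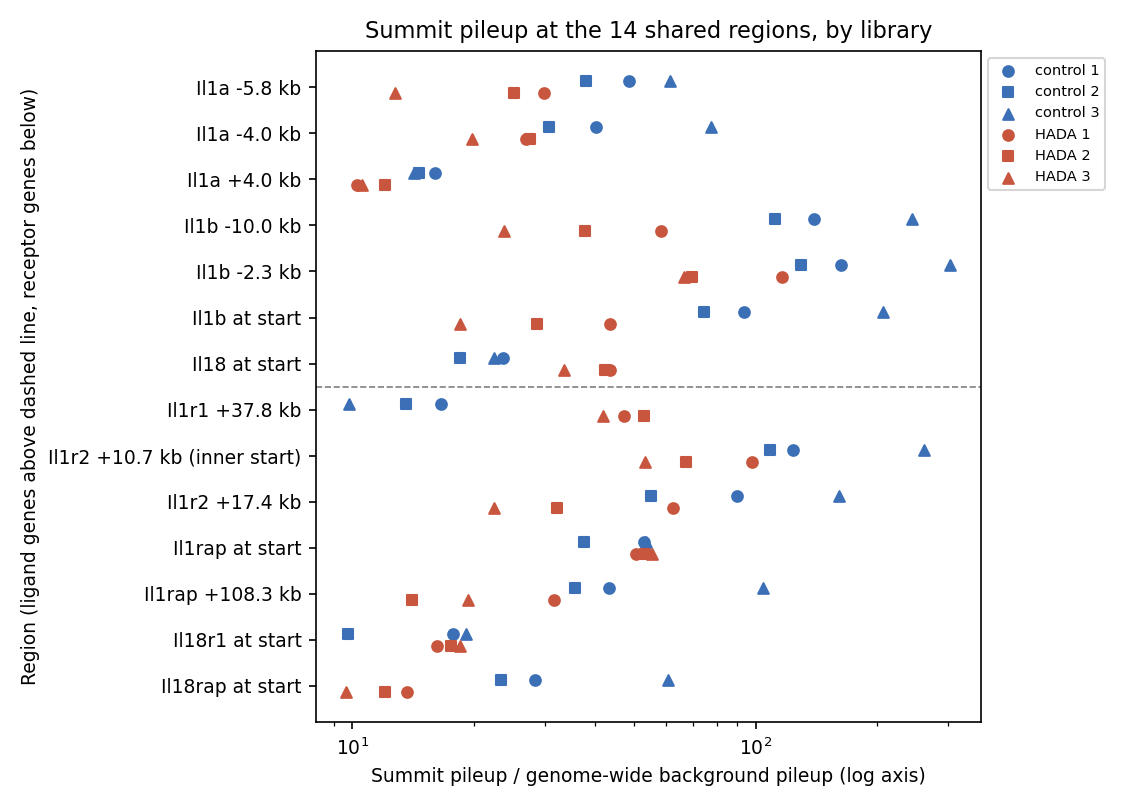
Each point is the summit pileup of 1 library over its genome-wide background, on a log axis, for the 14 regions with a peak in all libraries; ligand genes are above and receptor genes below the dashed line. Blue control points lie right of red HADA points at the Il1a and Il1b regions, whereas HADA points lie right at the Il18 start and at Il1r1.

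Il1a, which encodes the membrane-bound and intracellular IL-1 alpha, had no region within 1 kb of a start of its own. Its 4 regions lay within the long noncoding gene Gm14023, which spans Il1a, Il1b and the stretch between them, so they cannot be assigned to Il1a alone. The region 5.8 kb upstream had pileups of 48.6, 38.0 and 61.2 times background in controls against 29.9, 25.1 and 12.8 in HADA libraries. Every HADA library was below every control library, with a log2 difference of -1.57 ± 0.32 (SE, adjusted p = 0.0120, limma). The region 4.0 kb upstream had pileups of 40.3, 30.7 and 77.6 in controls against 26.9, 27.6 and 19.8 in HADA libraries. It also separated the groups, at -1.28 ± 0.36 (SE, adjusted p = 0.0250, limma), but this call was lost when any HADA library was left out. The region 4.0 kb inside Il1a lies over an inner start of Gm14023 and had a narrow spread, with pileups of 16.0, 14.6 and 14.2 in controls against 10.3, 12.1 and 10.6 in HADA libraries. Its difference was -0.83 ± 0.17 (SE, adjusted p = 0.0115, limma), and it was not called after division by the background, where the adjusted p was 0.202. The region 10.0 kb upstream had pileups of 39.1, 36.5 and 69.4 in control, 26.5 and 9.54 in HADA 1 and 2, and no peak in HADA 3.

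Il1rn, the gene of the receptor antagonist, had weak regions only, and none was in all libraries. Its tallest lay at an inner start 8.4 kb into the gene, with pileups of 16.6, 18.0 and 29.0 times background in control, 7.26 and 9.04 in HADA 1 and 2, and no peak in HADA 3. The groups did not overlap where peaks were called, and the region was not tested. The region 1.3 kb upstream was at 5.33, 4.87 and 8.20 in controls against at 6.53 in HADA 2 alone, and that 9.7 kb inside was in 1 library of each group.

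Il18 was the exception among the ligand genes. IL-18 differs from IL-1 beta in that its precursor is made constitutively by many cell types. The region over its start, chr9:50465752-50466710, had pileups of 23.7, 18.5 and 22.4 times background in controls against 43.6, 42.2 and 33.4 in HADA libraries. Every HADA library was above every control library, and the log2 difference was 0.50 ± 0.17 (SE, adjusted p = 0.0472, limma), or 0.88 after division by the background. The region also covers a start of the neighbouring gene Bco2, which encodes a carotenoid-cleaving enzyme. The call sat near the threshold and was kept in 1 of 6 fits that left out a library, the fit without control 3. A second region 6.6 kb upstream, in an intron of Bco2, had pileups of 15.4 and 13.6 in control 1 and 2, no peak in control 3, and 40.6, 40.7 and 36.1 in HADA libraries. The HADA values lay above both control values, and this region was not tested. A weak peak 1.0 kb upstream was called in control 1 alone.

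Il1r1, which encodes the signalling receptor of IL-1, had no region within 1 kb of a start. One of its introns held a region 37.8 kb into the gene, chr1:40301555-40302573, with pileups of 16.6, 13.6 and 9.84 times background in controls against 47.0, 52.7 and 41.8 in HADA libraries. The groups were far apart and the spread within each was small. The log2 difference was 1.47 ± 0.19 (SE, adjusted p = 0.00798, limma), a 2.77-fold higher level in HADA, and the call held with any 1 library left out. This was also the 1 region of the 14 that was called by the rank of the deposited fold. A second region 15.7 kb into Il1r1, over an exon of the unclassified gene Gm38070, was at 9.48 in control 1 and at 16.2, 16.6 and 11.4 in HADA libraries. It had no peak in the other controls and was not tested. The opposite pattern was seen 69.7 kb into the gene, with 11.3, 7.79 and 8.20 in controls against 5.52 in HADA 2 alone, but the summit sequence there occurs in 2 copies in the genome. The other 4 Il1r1 regions were called in 1 or 2 libraries each.

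Il1r2, the decoy receptor gene, had the tallest region among the receptor genes in all libraries but HADA 3, where the Il1rap start was taller. The tallest, chr1:40123569-40125082, lies over an inner start 10.7 kb into the gene and had pileups of 124, 108 and 261 times background in controls against 97.8, 67.3 and 53.2 in HADA libraries. Control libraries were all above HADA libraries, and the log2 difference was -1.48 ± 0.39 (SE, adjusted p = 0.0208, limma). The region 17.4 kb into the gene had pileups of 90.0, 55.0 and 161 in controls against 62.4, 32.1 and 22.4 in HADA libraries. Here HADA 1 lay above control 2 on this scale, though not after centring, and the difference was -1.76 ± 0.46 (SE, adjusted p = 0.0208, limma). Both calls were lost when HADA 2 or HADA 3 was left out.

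The single region of the family found in all HADA and no control libraries lay 0.8 kb upstream of the first Il1r2 start, in an exon of the noncoding gene Gm16894. It was weak, at 8.12, 6.03 and 4.40 times background. In raw pileup these were 19, 12 and 10, where the lowest pileups of the same lists were 9, 8 and 8, so the region lay near the calling limit in HADA 2 and 3. The other 6 Il1r2 regions were called in 1 to 5 libraries, and that 35.3 kb into the gene holds repeated sequence, with 67 copies of its summit.

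Il1rap, whose product is the accessory chain shared by several receptors of the family, did not pass the test at its start. The pileups there were 52.7, 37.5 and 53.6 times background in controls against 50.4, 53.2 and 55.4 in HADA libraries. The groups overlapped, and the log2 difference was -0.22 ± 0.19 (SE, adjusted p = 0.393, limma), or 0.16 after division by the background, so its sign depended on the scaling. Deep in the gene, 108.3 kb from the first start, an intronic region had pileups of 43.2, 35.5 and 104 in controls against 31.6, 14.1 and 19.3 in HADA libraries. It was lower in HADA, with a log2 difference of -1.78 ± 0.47 (SE, adjusted p = 0.0211, limma), a call lost without HADA 2 or HADA 3. The intronic region at 44.7 kb was at 21.3, 15.1 and 30.1 in controls against at 6.41 in HADA 1 alone, and that at 99.0 kb was called in control 3 alone.

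The IL-18 receptor chains differed from each other. At the start of Il18rap, chr1:40553244-40554860, the pileups were 28.4, 23.4 and 60.7 times background in controls against 13.7, 12.1 and 9.67 in HADA libraries. The groups did not overlap, and the difference of -1.93 ± 0.37 (SE, adjusted p = 0.0109, limma) held with any 1 library left out. At the start of Il18r1 the pileups were 17.8, 9.74 and 19.1 in controls against 16.2, 17.6 and 18.5 in HADA libraries. These overlapped, with a difference of -0.15 ± 0.26 (SE, adjusted p = 0.651, limma) that became 0.22 after division by the background.

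Il18r1 held 3, 2 and 2 peaks in controls against 4, 5 and 5 in HADA libraries, whose lists were longer overall. Its intronic regions 8.3 kb and 14.1 kb from the start were called in control 1 and in all HADA libraries, with HADA pileups of 12.8 to 18.8 times background. In control 1 they were at 10.1 and 8.89. The region at 10.4 kb was at 8.76 and 13.7 in control 2 and 3 and at 18.8, 18.6 and 18.5 in HADA libraries. None of these regions was in all libraries, so none was tested. The region at 4.7 kb was in HADA 2 and 3 alone. Within Il18rap the region 1.2 kb from the start was at 13.6, 18.0 and 35.0 in controls against at 6.84 and 7.53 in HADA 1 and 2. A region at an inner start 8.9 kb into Il18rap was called in HADA 3 alone, at 7.04. Il1rl1, which encodes the IL-33 receptor ST2, had 0 regions in any library.

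**Figure D3:**
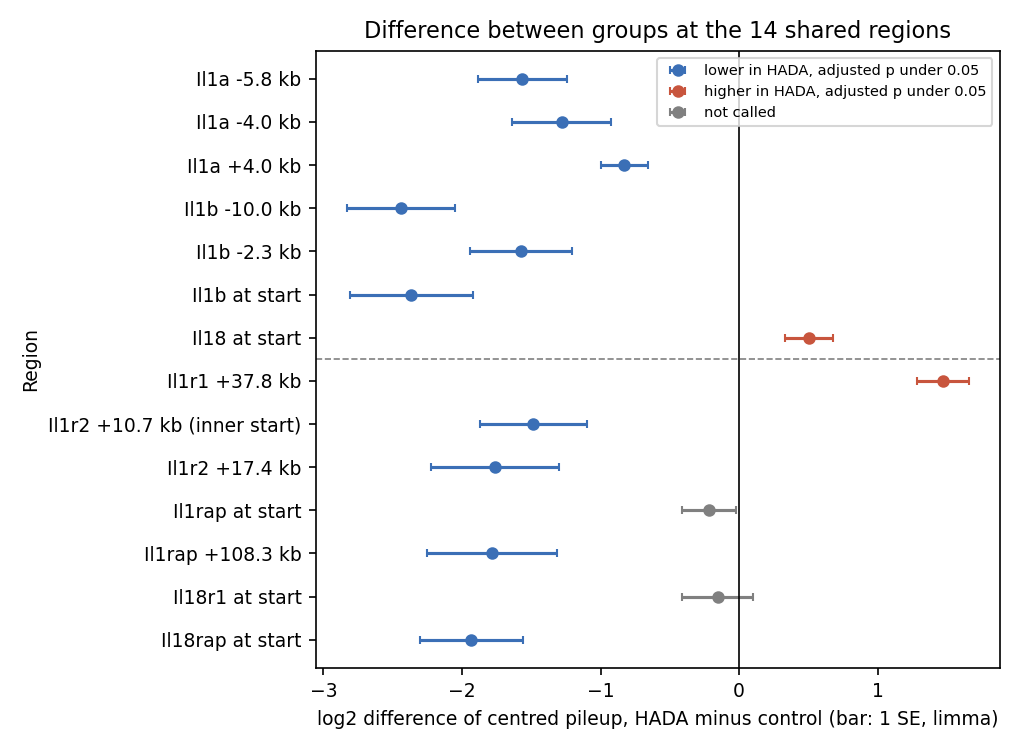
Each point is the log2 difference of centred summit pileup, HADA minus control, and the bar is 1 SE from limma; blue points were lower and red points higher in HADA at an adjusted p under 0.05. Differences run from -2.44 at Il1b to 1.47 at Il1r1, and the starts of Il1rap and Il18r1 in grey lie near 0.

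The median differences of ligand and receptor genes were close to each other in the main comparison, but their gap depended on the regions and libraries used. The median log2 difference was -1.57 over 7 ligand regions and -1.48 over 7 receptor regions. This gap of -0.08 ran from -0.73 to 0.13 with other choices of regions and measure, and was -0.68 without control 1. Of the ligand regions 6 were lower and 1 higher, and of the receptor regions 4 were lower, 1 higher and 2 not called. Among all shared regions 24.1% were lower and 17.9% higher, so the share of higher calls in each class, 14.3%, was not above that of all. The number of peaks averaged 13.3 ± 1.53 in control and 10.7 ± 2.31 in HADA libraries at ligand genes and 16.3 in both groups at receptor genes (SD 2.08 in controls against 0.58 in HADA libraries, n = 3). The single higher call of each class, at Il18 and at Il1r1, stood against lower calls at Il1b and Il1a and at Il1r2.

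The surroundings of these peaks moved with the summits. At the Il1b start the local background that MACS2 used was 36.7, 28.4 and 83.6 times the genome-wide background in controls against 16.3, 10.9 and 8.29 times in HADA libraries. Summit and surroundings therefore changed by similar amounts, -1.99 and -1.96 on the log2 scale. Both were solved from the same deposited fold and p-value, and no input library is named, so they are not independent measures. Part of their likeness may be built in. The deposited fold of that peak, which divides the one by the other, was 2.53, 2.59 and 2.45 in controls against 2.62, 2.56 and 2.17 in HADA libraries, and these overlapped. By the rank of the fold within each library, 0 of the 14 regions were lower and 1 was higher, and the Il1b start differed by 0.04 (adjusted p = 0.871, limma on normal scores). Over the 14 regions the median change of the local background was -1.46, against 0.27 over all shared regions. The Il1b region 10.0 kb upstream changed more than its surroundings, -2.06 against -1.67, and the Il1r1 intron did so in the other direction, 1.85 against 1.22. The tallest region, 2.3 kb upstream of Il1b, changed less than its surroundings, -1.19 against -1.90. Its deposited fold was 7.03 to 8.56 in HADA libraries against 4.45 to 5.28 in controls, without overlap. Its fold rank differed by 0.78 (adjusted p = 0.0503, limma on normal scores). Which of the measures follows the accessibility of a broadly open gene was not tested.

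**Figure D4:**
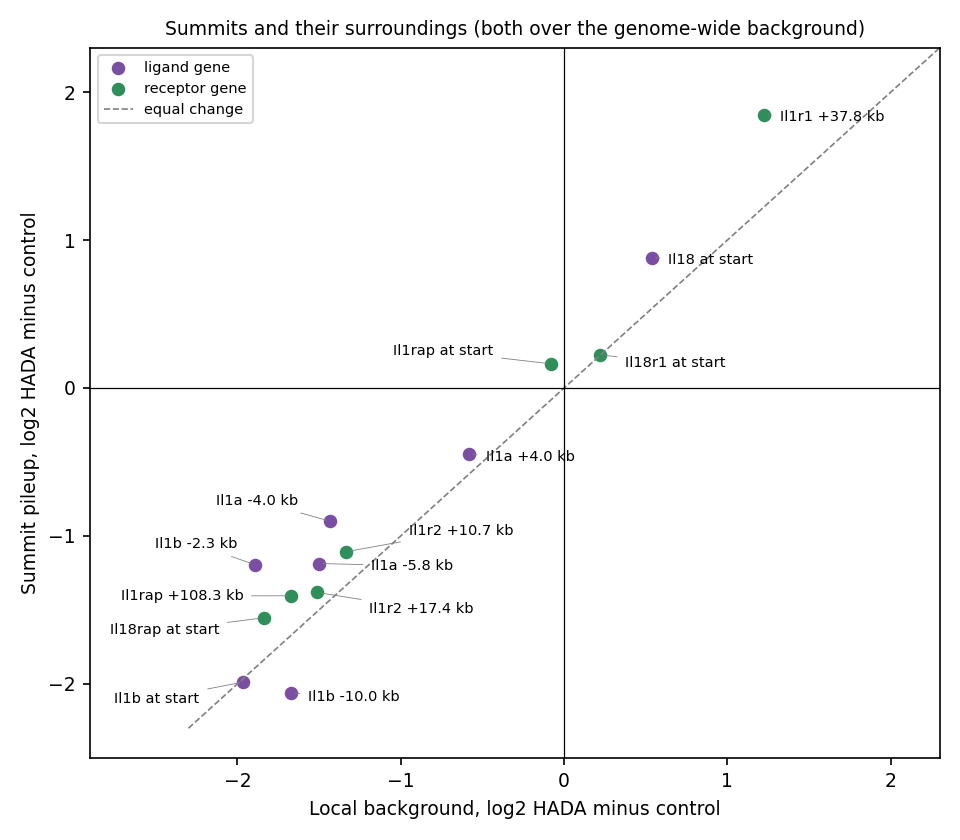
Each point is 1 of the 14 regions, with the log2 difference of the local background on the horizontal axis and that of the summit pileup on the vertical axis, both HADA minus control and both over the genome-wide background. Points follow the dashed line of equal change, from the Il1b start at -1.96 and -1.99 to the Il1r1 intron at 1.22 and 1.85. The axes are not independent measures.

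Markers of the blood cell types moved between the groups as well. Of the neutrophil markers 12 of 12 genes had a peak, and all 4 with a shared start region were lower in HADA, with a median log2 difference of -1.65. Over all their shared regions 9 of 15 were lower, against 24.1% of all shared regions, with a median of -0.77. Their summed pileup over background was 648 to 1559 in controls against 525 to 801 in HADA libraries. Of the monocyte markers 5 of 7 start regions were lower and 1 was higher, with a median of -1.11 and sums of 375 to 527 and 451 to 499. B cell markers went the other way at 3 of 3 start regions, with a median of 1.97 and sums of 221 to 938 and 2206 to 2294. T cell markers had a start median of 0.45 with 1 of 8 higher, and over all their shared regions 8 of 23 were higher and 0 lower, against 17.9% higher among all. Housekeeping genes had a start median of -0.17 with 1 of 8 lower. The NK cell list had 1 shared start region, which was not called (0.32), the eosinophil, basophil and mast cell list had 0, and of 2 erythroid and platelet start regions 1 was higher (median 0.61). The shared Il1b and Il1r2 regions were lower, as were most shared start regions of neutrophil and monocyte markers, though the monocyte sums overlapped. The called Il1r1 and Il18 regions were higher, and the B cell, T cell, NK cell and erythroid and platelet start medians were also above 0. Among controls the centred Il18 start was highest in control 3 (-0.54, -0.53 and -0.26). The B cell start median was lowest there (-0.16, -0.74 and -1.91). The part of cell composition in these differences was not tested.

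**Figure D5:**
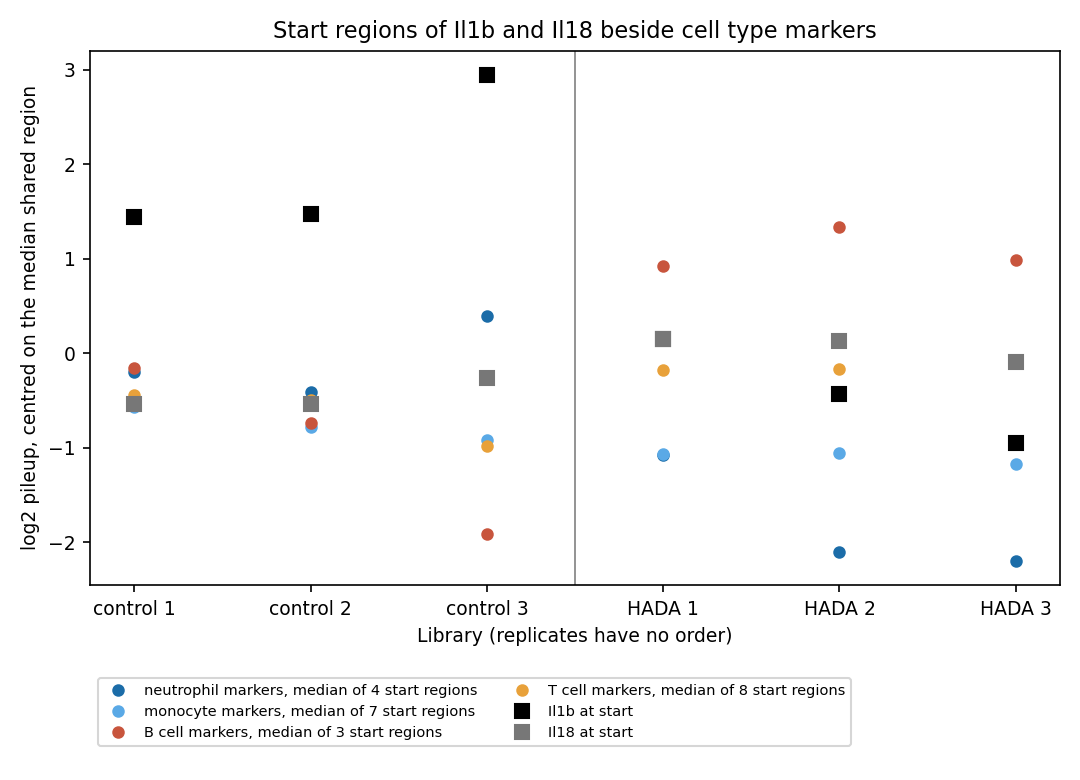
Points give the log2 summit pileup centred on the library's median shared region for the start regions of Il1b and Il18 and the median over the start regions of 4 marker lists. Il1b and the neutrophil median are highest in control 3 and lower in the HADA libraries, and the B cell median is lowest in control 3 and above 0.9 in each HADA library.

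The rest of the interleukin-1 pathway, 25 further genes, did not share one direction. Of the other ligands and inhibitors 1 of 1 shared region was lower, at the start of Il18bp, the soluble inhibitor of IL-18. Its difference was -1.01 ± 0.28 (SE, adjusted p = 0.0239, limma). Of the 8 regions of this list 2 had a peak in every HADA and no control library, against 7.01% of all regions. Of 7 shared regions at the other receptors 3 were higher, against 17.9% of all, and 2 were lower, near the 24.1% of all. All 3 higher regions lay at Sigirr, a receptor that dampens signalling. Of the 14 regions at these receptors 2 had a peak in every control and no HADA library, against 1.88% of all regions. The maturation genes, whose products process and release IL-1 beta and IL-18, had 5 of 8 shared regions lower, against 24.1% of all, and 1 higher. Among them the start of Nlrp3, the inflammasome sensor, was lower, at -1.92 ± 0.35 (SE, adjusted p = 0.01004, limma), and that of Pycard, the inflammasome adaptor, was higher by 0.61 ± 0.20 (SE, adjusted p = 0.0414, limma). Of 27 shared regions at 11 signalling genes 5 were higher and 3 lower, with a median of 0.02, and the share that was higher was near the 17.9% of all shared regions. Their start regions that were higher belonged to Irak3, an inhibitory kinase homologue (0.58 ± 0.16, SE, adjusted p = 0.0263, limma), and Tab1, a partner of the kinase TAK1 (0.53 ± 0.16, SE, adjusted p = 0.0339, limma). Of 40 signalling regions 3 had a peak in every HADA and no control library, near the 7.01% of all, and of 12 maturation regions 0.

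Matches to C/EBP and RUNX letters were the most frequent around the summits of the family. Within 100 bp of each summit on either strand, a window that differs from those printed before a start, the C/EBP letters TTGCNNAA lay in 9 of 44 regions (20.5%), against 8.69% of all regions, and 6 of the 9 were at Il1a and Il1b. The RUNX letters TGTGGTT lay in 10 regions (22.7%), against 7.13%, among them 4 of the 5 Il18r1 regions. AP-1 (TGANTCA) was in 6 regions (13.6%) against 5.52%, and IRF (GAAANNGAA) in 5 (11.4%) against 6.48%. PU.1 (GAGGAAGT) was in 3 (6.82%) against 4.16%, and STAT (TTCNNNGAA) in 3 (6.82%) against 5.94%. NF-kB (GGGANTTCC) was in 1 (2.27%) against 1.08%. NRF2 (TGACNNNGC), a motif of the factor named by the study, was in 2 regions (4.55%) against 8.25%. These lay 6.6 kb upstream of Il18 and 1.3 kb upstream of Il1rn. The GATA motif, spelt AGATAA, was in 3 (6.82%) against 6.95%, and the TATA box, spelt TATAAA, in 5 (11.4%) against 8.47%. ETS (CCGGAAG) was in 0 against 3.95% and T-box (AGGTGTGA) in 0 against 0.82%. AP-1 and NRF2 letters can match the same bases. These are counts of letters and carry no test.

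The promoters whose pattern over the 6 libraries was most like that of the Il1b start were those of Fam217b, Lypd6b, Gm49339, Raet1e and Retreg1. Their root mean square distance from Il1b, after each region's mean was removed, was 0.12 to 0.15 on the log2 scale over 6 libraries. Each was lower in HADA, from -2.19 at Gm49339 to -2.56 at Raet1e, and each was highest in control 3. Both traits follow from the choice by this distance.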

How the data were processed

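ATAC-seq peak lists of white blood cells from mice were used, 3 control and 3 HADA, with groups taken from the labels. Per the study, the authors used Trimmomatic for trimming, Bowtie2 for alignment, Picard for duplicate removal and MACS2 for peaks, and the deposited peak names show a separate call for each library; the options and any Tn5 shift are not given in the sources used here. The deposited lists hold a score, a fold enrichment (a ratio over local background), a −log10 p-value and a −log10 q-value per peak, and no counts. Whole-number summit pileups and local backgrounds were solved from the deposited fold and −log10 p-value, for 100% of peaks. Genes and coordinates are GENCODE mouse, GRCm39, 1-based. Regions were tested with limma 3.58.1 in R 4.3.3, checked on simulated data. Alternatives covered the measure, scaling, merging, peak threshold, imputation, replicate block, variance trend, window and libraries left out. All 10 genes are named, each with its start region where it had one. Every region that was called, in all libraries of 1 group only or tallest is given too. The 5 promoters most like Il1b were named by distance. The members and the gene lists and motifs were chosen with earlier results of these data known. Labelled samples were not stated to be from single animals or from separate cultures or litters, so p-values measure the spread between these samples.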

Additional observations from a re-analysis of the deposited data

How the results depend on the processing

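The difference at the Il1b start kept its direction and call under every alternative that gave a value except the rank of the deposited fold, where it was 0.039; it ranged from -2.64 to -1.92 with 1 library left out and had no value at a −log10 q of at least 5, where it was not in all lists. The count of regions lower in HADA, 10 of 14, was 0 by the fold rank, 18 of 29 with imputed values, 5 of 8 within 3 kb of a start and 6 to 10 with 1 library left out, the 6 without HADA 2. Regions with imputed values entered through the group that had peaks, so these counts support no direction. The count higher in HADA, 2, was 1 by the fold rank, with a replicate block, with a variance trend and within 3 kb, 5 with imputed values, and 1 to 3 with 1 library left out, where 3 was without control 3 and 1 without any other library. The call at the Il18 start was the one lost in the replicate block and trend fits. Replicate numbers did not pair the libraries (correlations of same-numbered deviations of -0.08, 0.075 and -0.38), and the replicate block moved all calls from 4291 to 2991 higher and from 5769 to 5660 lower; with the block 10 member regions were lower.

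The gap between ligand and receptor medians, -0.08, was 0.13 by the fold rank, -0.72 with summits chained within 250 bp, -0.57 at a −log10 q of at least 5 and with equal numbers of strongest peaks, -0.73 with imputed values, -0.35 within 3 kb, and -0.68 to 0.035 with 1 library left out, so its size and sign rest on which regions and libraries enter; it was -0.68 without control 1. Regions found in HADA only were 1, or 2 at a −log10 q of at least 5, and 1 to 4 with 1 library left out, the 4 without control 1. Regions in control only were 0, or 1 at that q, 2 with equal numbers of strongest peaks, and 0 to 2 with 1 library left out, the 2 without control 2 or HADA 2. The peak number difference, -2.67, was -6.67 with equal numbers of strongest peaks and -4.50 to -1.17 with 1 library left out. Total depth is unknown, and 3 libraries a group limit every value.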
